A study of Mus musculus with 7 samples.

Results

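The Toll-like receptors are the 10 genes Tlr1 to Tlr9 and Tlr13, chosen by symbol, and all 10 were among the 14594 gene rows of the count table. RNA was sequenced from cortical microglia, the resident macrophages of the brain, of C57BL/6 mice aged 12 weeks. Every animal was of the genotype Cx3Cr1 GFP/+; Hoxb8 IRES-Cre/+; ROSA26 CAG-LSL-tdTomato/+, so the control cells carried the same 3 alleles as the Hoxb8 cells. Cells with both colours came from precursors that had switched on Cre at the Hoxb8 locus and are called Hoxb8 microglia (n = 3, libraries 6, 14 and 22, as replicates 1 to 3). GFP-only cells, here non-Hoxb8 microglia, gave libraries 5, 13, 21 and 25 (n = 4, as replicates 1 to 4). The comparison of these groups is the one the study was built on. GFP at the Cx3Cr1 locus replaces 1 copy of that receptor gene in both groups and also marks macrophages other than microglia. The labels name 4 independent animals for 7 libraries without saying which libraries share an animal, so p-values measure the spread between these libraries.

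Toll-like receptors are membrane proteins with leucine-rich repeats that bind microbial molecules and signal through a cytoplasmic TIR domain. Receptors at the cell surface recognise lipids and proteins of microbes, while receptors in endosomes recognise nucleic acids. Nearly all signal through the adaptor MyD88 to the transcription factor NF-kB, and in the brain microglia are a main cell type that carries them.

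Counts summed to between 5922972 and 7753577 per library. The 10 microglial marker genes examined were all detected and together reached 35160 to 46620 CPM (counts scaled to library size with TMM factors) in non-Hoxb8 libraries and 39820 to 45290 CPM in Hoxb8 libraries. Of 11874 genes tested with edgeR's quasi-likelihood test, 4 were higher and 0 were lower in Hoxb8 microglia at an adjusted p below 0.05, with 231 and 187 at an unadjusted p below 0.05. Libraries with adjacent numbers (5 and 6, 13 and 14, 21 and 22) deviated from their group means together and were also fitted as pairs, which gave 43 genes higher and 0 lower. Library 25 has no partner and so adds nothing to the group difference in the fits with pairs. DESeq2 gave 20 higher and 4 lower without pairs, and limma-voom gave 0 and 0.

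Tlr8 was the member on which the group comparison turned, and it lies on chromosome X from 167242696 to 167264329 on the minus strand (GRCm38, GENCODE M21), 40599 bases from Tlr7 with 0 genes between them. The 250 bases before its start, chrX:167264330-167264579 on the minus strand (RefSeq, GRCm38.p6), are shown because Tlr8 was the member whose RNA differed most between the groups. Capitals mark 2 overlapping matches to TATAAA, 1 on each strand.
Tlr8 upstream: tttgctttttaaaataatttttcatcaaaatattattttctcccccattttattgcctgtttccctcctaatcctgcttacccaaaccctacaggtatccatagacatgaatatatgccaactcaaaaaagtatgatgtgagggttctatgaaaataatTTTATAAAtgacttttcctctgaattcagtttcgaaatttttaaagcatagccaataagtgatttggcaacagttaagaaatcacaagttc
The letters TATAAA were found on either strand in 12.4% of 32851 upstream windows of the same length. The Tlr8 window did not hold, on either strand, the letters GAGGAAGT (PU.1, in 2.44% of windows), TGANTCA (AP-1, 6.75%), TGACGTCA (CRE, 1.55%), CCGGAAGT (ETS, 2.88%) or the interferon-stimulated response element (2.98%), searched as GAAA, any 2 bases and GAAA.

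Tlr1 and Tlr6 lie 18467 bases apart on chromosome 5 with 0 genes between them, and their coding sequences hold an identical run of 229 bases. The run is at chr5:64925537-64925765 in Tlr1 and at chr5:64953828-64954056 in Tlr6, both on the minus strand of GRCm38. It is shown because reads within it belong equally to both genes.
Tlr1 and Tlr6 shared run: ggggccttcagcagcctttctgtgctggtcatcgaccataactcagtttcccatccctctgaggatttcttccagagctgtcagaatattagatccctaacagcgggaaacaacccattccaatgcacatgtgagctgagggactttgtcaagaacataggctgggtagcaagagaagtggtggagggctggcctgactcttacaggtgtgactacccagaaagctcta
Of the stretches of 50 bases in Tlr1 transcripts, 13.6% occur in Tlr6 as well and 15.4% in any other gene, and 12.3% of those of Tlr6 occur in Tlr1. Their counts are therefore uncertain by as much as the authors' counting divided or dropped such reads. Tlr2, Tlr5, Tlr7, Tlr8, Tlr9 and Tlr13 shared no such stretch with any other gene, and Tlr4 shared 0.216%. Part of Tlr3, 381 exon bases, overlaps the antisense gene Gm45542, and without strand the reads of the 2 cannot be told apart there.

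Positions of the other members are on GRCm38 (GENCODE M21), and all 10 are annotated as protein-coding. Tlr7 lies on chromosome X from 167304929 to 167330558 (minus strand), and Tlr13 on chromosome X from 106143204 to 106160493 (plus). Tlr3 is on chromosome 8 from 45395665 to 45411080 (minus), and Tlr9 on chromosome 9 from 106222598 to 106226883 (plus). Of the surface receptors, Tlr4 is on chromosome 4 from 66827584 to 66930284 (plus), Tlr2 on chromosome 3 from 83836272 to 83841767 (minus) and Tlr5 on chromosome 1 from 182954788 to 182976044 (plus). Tlr1 spans 64924679 to 64933563 and Tlr6 spans 64952031 to 64960097 of chromosome 5, both on the minus strand.

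All 10 receptors were detected, and their levels per kilobase of merged exons formed an order that held across most libraries. Averaged over the 7 libraries, Tlr7, a receptor for single-stranded RNA, led at 386 CPM per kilobase. Tlr13, which in mouse recognises bacterial ribosomal RNA, followed at 196 CPM per kilobase, and Tlr3, the receptor for double-stranded RNA, at 99.5. All 3 work in endosomes, as does Tlr9, the receptor for unmethylated CpG DNA, which came next at 82.9 CPM per kilobase.

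The surface receptors were lower. Tlr4, which binds lipopolysaccharide with its partner Ly96, reached 51.6 CPM per kilobase. Tlr2, the shared chain of the lipopeptide receptors, reached 40.4 and its partner Tlr1 33.7 CPM per kilobase. Tlr5, the flagellin receptor, and Tlr6, the other partner of Tlr2, reached 22.4 and 16.3 CPM per kilobase. Tlr8, an endosomal RNA sensor best known from human cells, was last at 1.59 CPM per kilobase, with libraries from 0 to 4.88.

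Neighbours in this order were mostly separated in each library. Tlr7 exceeded Tlr13, Tlr13 exceeded Tlr3, Tlr9 exceeded Tlr4, Tlr1 exceeded Tlr5, Tlr5 exceeded Tlr6 and Tlr6 exceeded Tlr8 in 7 of 7 libraries. Tlr3 exceeded Tlr9 in 6 and Tlr4 exceeded Tlr2 in 5. Tlr2 exceeded Tlr1 in 3 of 7, so the order of this last pair was not fixed.

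**Figure D1:**
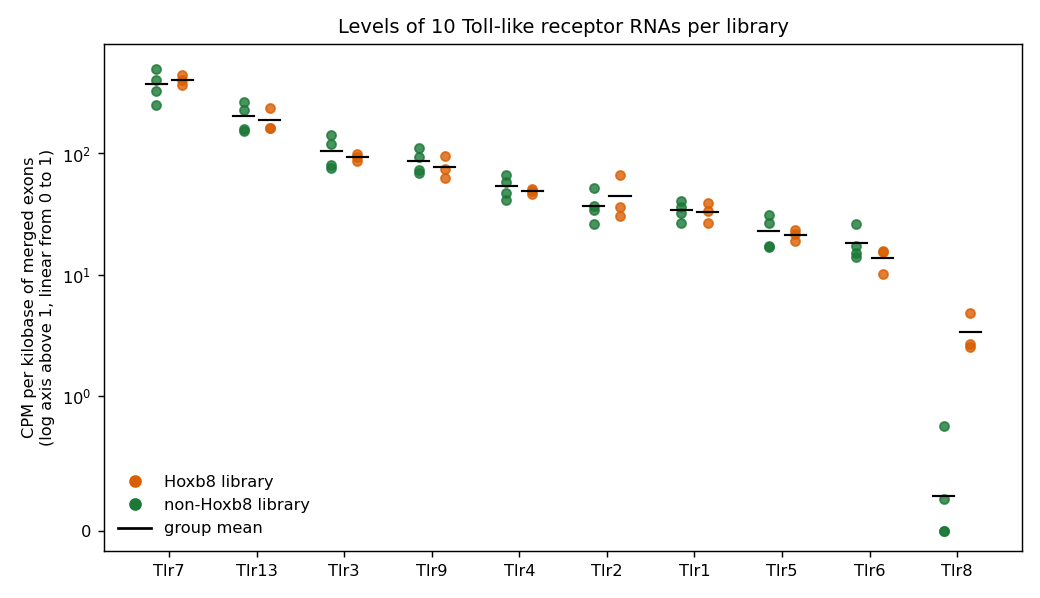
Level of each Toll-like receptor in CPM per kilobase on an axis that is logarithmic above 1 and linear from 0 to 1, with 1 point per library, coloured by group, bars at the group means, and the receptors in order of their mean. The points of both groups lie over each other for 9 receptors and apart for Tlr8, whose Hoxb8 libraries all sit above the non-Hoxb8 libraries.

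As shares of the summed receptor level (CPM per kilobase), Tlr7 made up 35.3% to 44.1% and Tlr13 made up 17.7% to 23.1% in the 7 libraries. The 5 endosomal receptors together made up 80.7% to 84.9% in Hoxb8 libraries and 78.7% to 83.5% in non-Hoxb8 libraries, and these ranges overlapped. Tlr2 was the surface receptor whose share moved most, from 2.96% up to 7.30% in library 13 and 7.27% in library 14. Those libraries are 1 of each group. The 3 X-linked receptors, Tlr7, Tlr8 and Tlr13, made up 61.8% to 66.4% in Hoxb8 and 57.9% to 62.7% in non-Hoxb8 libraries.

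**Figure D2:**
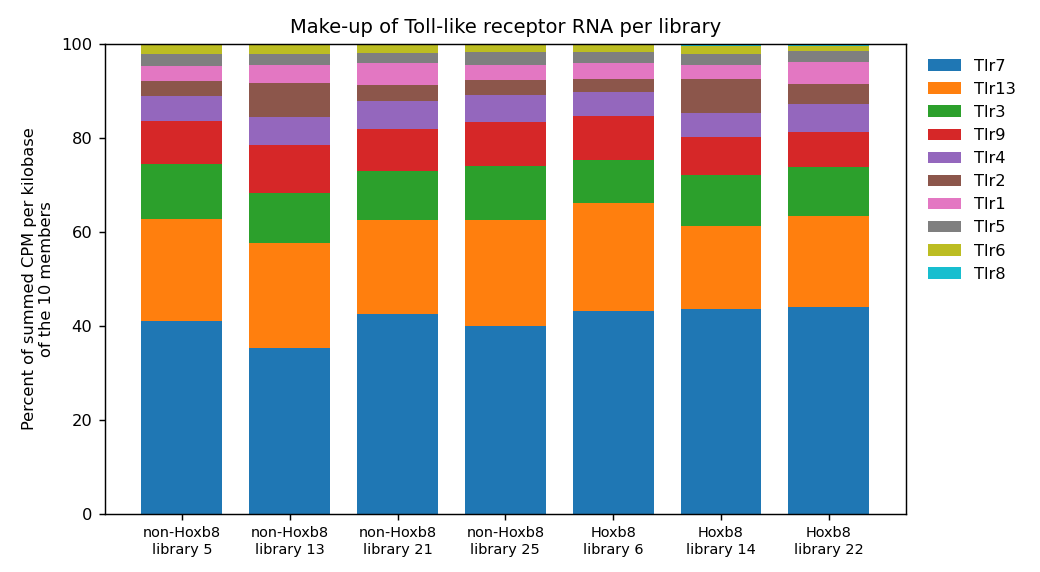
Share of the summed Toll-like receptor level (percent of CPM per kilobase) taken by each receptor, 1 bar per library. Tlr7 and Tlr13 fill the largest shares in all 7 libraries, and Tlr2 is widest in libraries 13 and 14.

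Between the groups, 0 of 10 receptors passed edgeR's test without pairs at an adjusted p below 0.05, where 0.0337% of all genes tested were called higher and 0% lower. By DESeq2 without pairs 0 of 10 passed (0.168% higher and 0.0337% lower over all genes), and by limma-voom 0 of 10 (0% and 0%). Tlr8 alone had an unadjusted p below 0.05 in edgeR (1.95% of all genes tested higher and 1.57% lower), and again in the fit with pairs (3.01% and 2%). The median log2 fold change over the 10 receptors was -0.11, with 3 above 0, against 0.00 over all genes tested. Tlr8 was also the only member whose groups did not overlap, with Hoxb8 higher, where 2.46% of all genes tested were so separated with Hoxb8 higher and 2.08% with Hoxb8 lower. It was the 1 member higher in all 3 pairs of libraries (12.6% of all genes tested), and 0 members were lower in all 3 (12.1%).

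Tlr8 RNA was counted in every Hoxb8 library and was at 0 or scarce in the non-Hoxb8 libraries. Counts were 72, 130 and 68 in Hoxb8 libraries 6, 14 and 22, and 0, 22, 0 and 5 in non-Hoxb8 libraries 5, 13, 21 and 25. In CPM these were 9.61, 17.5 and 9.15 against 0, 2.80, 0 and 0.857, or 12.1 ± 4.69 (SD, n = 3) against 0.913 ± 1.32 (SD, n = 4). The lowest Hoxb8 library was thus above the highest non-Hoxb8 library, and the group sums were 270 and 27 counts.

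The size of the Tlr8 difference rested on low counts. edgeR without pairs fitted a log2 fold change of 3.67 ± 1.05 (SE, 95% interval 1.42 to 5.93) with an adjusted p of 1. With adjacent libraries as pairs the log2 fold change was 4.90 ± 1.06 (SE, interval 2.73 to 7.07), and the adjusted p of edgeR's test was 0.0219, where 0.362% of all genes tested were called higher. DESeq2 gave an adjusted p of 0.0762 without pairs and 0.000616 with pairs (0.413% of all genes tested higher and 0.0168% lower). In edgeR with pairs, the adjusted p of Tlr8 was 0.0643 without libraries 21 and 22, 0.0296 without 5 and 6, and 0.00351 without 13 and 14, so the call was lost when 21 and 22 were left out.

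Within the pairs, 2 of the 3 ratios could be given only against a limit for a count of 0. Tlr8 in library 6 was 23.3-fold above the limit in library 5, taking 3 counts per library (0.412 CPM) as what a count of 0 allows. Library 22 was 19.1-fold above the limit in library 21, again 3 counts per library (0.480 CPM). Both ratios leave out the counting error of the Hoxb8 library. In the remaining pair, library 14 was 6.26-fold above library 13 (exact 95% interval 3.96 to 10.3, for counting error only).

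Marker sums of other brain macrophages and of monocytes were also higher in the Hoxb8 libraries. The 10 border-associated macrophage markers, all in the table, summed to 435, 847 and 205 CPM in Hoxb8 libraries 6, 14 and 22 and to 65.2, 134, 34.1 and 201 CPM in libraries 5, 13, 21 and 25. Libraries 22 and 25 were close in this sum, of which Mrc1 alone made up 114 and 106 CPM. Single markers differed between libraries 22 and 25 in both directions, such as Cbr2 at 9.29 and 1.89 CPM and Lyve1 at 22.1 and 43.0 CPM. The mean of each of the 10 was higher in Hoxb8 microglia, and 5 had groups that did not overlap, with Hoxb8 higher (2.46% of all genes tested). Of the 10, 0 were called higher by edgeR without pairs (0.0337% of all genes tested), 6 with pairs (0.362%) and 3 by DESeq2 without pairs (0.168%). The 10 monocyte markers summed to 300 to 673 CPM in Hoxb8 and 130 to 206 CPM in non-Hoxb8 libraries. Lyz2 alone made up 184.4 to 467.4 and 99.6 to 184.7 CPM of these sums, and its groups overlapped. Of the 8 of them tested, 1 was called higher by edgeR without pairs (0.0337% of all genes tested), 4 with pairs (0.362%) and 5 by DESeq2 without pairs (0.168%). Of these monocyte markers, Ly6c2 was at 0 in all Hoxb8 libraries, while Treml4 and Spn were at 0 in all non-Hoxb8 libraries. Summed dendritic cell markers were 28.1 to 98.4 against 16.3 to 33.1 CPM, which overlap, while all 7 means were higher in Hoxb8 microglia. Among them Cd209a had CPM of 8.01, 54.8 and 6.87 in Hoxb8 libraries against 0.137, 0, 0.480 and 0, without overlap, and was 1 of the 4 genes called by edgeR without pairs (adjusted p = 0.0281). Of the 5 dendritic cell markers tested, only Cd209a was called by edgeR with or without pairs. Means of the others tested were 18.0 against 17.4 CPM for Itgax, 2.64 against 1.96 for Flt3, 2.19 against 1.66 for Zbtb46 and 2.555 against 1.96 for Xcr1. Of 8 neutrophil markers 5 were in the table, summing to 592 to 641 against 626 to 745 CPM, of which Csf3r alone made up 592 to 641 and 626 to 745. S100a8, S100a9 and Mmp9 were at 0 in 6 libraries and had 5, 18 and 2 counts in library 22. Astrocyte markers summed to 280 to 641 against 391 to 1119 CPM and neuronal markers to 26.3 to 49.8 against 9.93 to 79.2 CPM. The part of these cells in the Tlr8 level was not tested, and in bulk RNA a change in the number of cells of a type and a change in RNA per cell cannot be told apart.

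Among 11873 other genes tested, the 3 whose log2 CPM followed Tlr8 most closely over the 7 libraries were Mrpl4, a mitochondrial ribosomal protein gene (Pearson r = 0.986), D8Ertd738e (0.976) and Snrpc, which encodes a protein of a spliceosomal particle (0.973). With 7 libraries, in which the groups themselves differ in Tlr8, these values are a description of these libraries.

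Tlr7, the neighbour of Tlr8, showed no such separation. Its CPM were 1801, 1641 and 1508 in Hoxb8 libraries 6, 14 and 22, and 2041, 1024, 1341 and 1663 in libraries 5, 13, 21 and 25. The groups overlapped, with means of 1650 ± 147 (SD, n = 3) and 1517 ± 436 (SD, n = 4). The log2 fold change was 0.12 ± 0.19 (SE) with an interval of -0.29 to 0.53. Within pairs the log2 ratios of Tlr7 were -0.18, 0.68 and 0.17.

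Tlr13, the third X-linked member, had CPM of 1019, 701 and 697 in Hoxb8 libraries and 1144, 686, 665 and 991 in non-Hoxb8 libraries. Its Hoxb8 libraries fell inside the non-Hoxb8 range, and its log2 fold change was -0.11 ± 0.21 (SE, interval -0.55 to 0.33). Tlr3 had CPM of 490, 520 and 451 against 739, 392, 418 and 618. These too lay inside the non-Hoxb8 range, at a log2 fold change of -0.15 ± 0.20 (SE, interval -0.58 to 0.28). Tlr9 had CPM of 332, 261 and 218 against 389, 252, 240 and 327. Library 22 was the lowest of the 7 and library 5 the highest, and the log2 fold change was -0.16 ± 0.20 (SE, interval -0.59 to 0.27).

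Of the surface receptors, Tlr4 was the tightest within Hoxb8 microglia. Its CPM were 285, 260 and 273 in Hoxb8 libraries and 371, 232, 261 and 325 in non-Hoxb8 libraries, and the log2 fold change was -0.12 ± 0.18 (SE, interval -0.51 to 0.26). Tlr5 had CPM of 113, 103 and 91.3 against 149, 80.5, 83.3 and 129, again inside the non-Hoxb8 range, at -0.11 ± 0.24 (SE, interval -0.62 to 0.40).

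Of the lipopeptide receptors, Tlr1 and Tlr6 were highest in library 5 and Tlr2 in library 14. Tlr2 had CPM of 91.5, 202 and 110 in Hoxb8 libraries and 111, 156, 78.3 and 103 in non-Hoxb8 libraries. Its highest values were in libraries 14 and 13, a pair that crosses the groups, and its log2 fold change was 0.26 ± 0.28 (SE, interval -0.34 to 0.87). Tlr1 had CPM of 112, 89.8 and 131 against 135, 89.9, 122 and 109, at -0.03 ± 0.21 (SE, interval -0.48 to 0.42). For Tlr1 the lowest values were in the same libraries 13 and 14. Tlr6 had CPM of 58.2, 57.8 and 37.8 against 97.8, 52.4, 55.9 and 64.6. Its groups overlapped, and its log2 fold change of -0.40 ± 0.28 (SE, interval -0.998 to 0.20) was the lowest among the 10, with an adjusted p of 1 in edgeR's test.

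**Figure D3:**
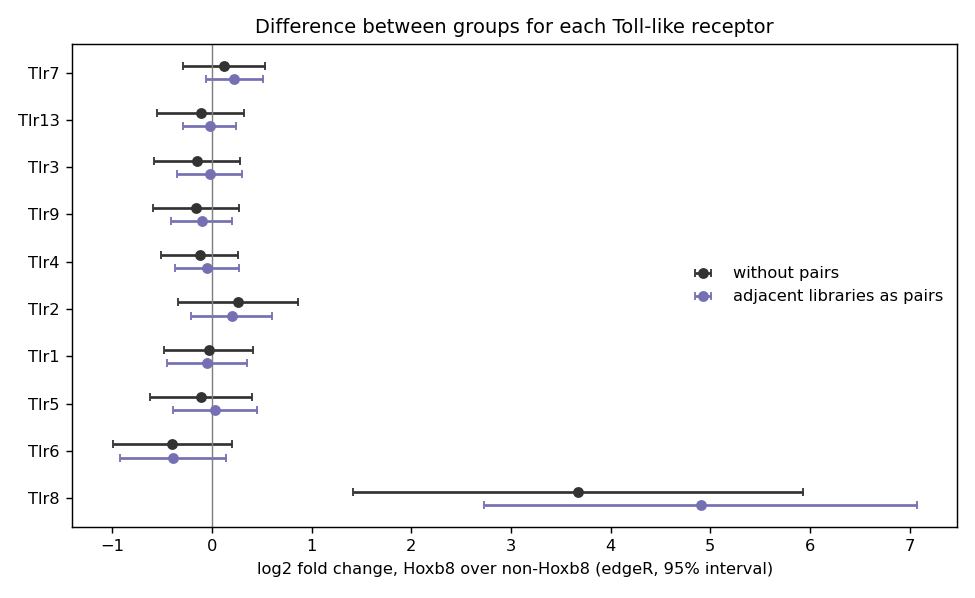
Log2 fold change of each Toll-like receptor in Hoxb8 over non-Hoxb8 microglia from edgeR without pairs and with adjacent libraries as pairs, each with its 95% interval. Both intervals of the other 9 receptors span 0, and those of Tlr8 run from 1.42 to 5.93 and from 2.73 to 7.07.

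The other 9 receptors had log2 fold changes from -0.40 to 0.26, standard errors of 0.18 to 0.28, and interval bounds that reached from -0.998 to 0.87. In the fit with pairs they ranged from -0.39 to 0.22 with an adjusted p of 1 for each in edgeR's test. Library 5 held the highest CPM for 8 of these 9, all but Tlr2, which was highest in library 14. The highest library exceeded the lowest by 1.51-fold for Tlr1 up to 2.59-fold for Tlr6. The biological coefficient of variation is the relative spread between libraries of a group. It was 0.23 to 0.295 for the 9, below the median of 0.377 over all genes tested, and 0.839 for Tlr8. Genes of a similar level were not compared separately, and the counts of Tlr8 were low.

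Since Tlr7, Tlr8 and Tlr13 are X-linked, RNA of sex-linked genes is given beside them. Xist, made from the inactive X chromosome of females, was at 8280 to 22510 CPM in libraries 5, 6, 21, 22 and 25 and at 23.1 and 15.1 CPM in libraries 13 and 14. The 4 Y-linked genes Ddx3y, Kdm5d, Eif2s3y and Uty summed to 293 and 268 CPM in libraries 13 and 14, to 84.5 to 133 in libraries 21, 22 and 25, and to 0.411 and 0 in libraries 5 and 6. Libraries 21, 22 and 25 thus held RNA of both kinds. The labels do not say whether animals were pooled, so n counts libraries here and not animals. Tlr8 was higher in the Hoxb8 library of the pair with Y-linked RNA near 0 (9.61 against 0 CPM), of the pair low in Xist (17.5 against 2.80) and of the pair with both (9.15 against 0).

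The receptor rows Tlr11 and Tlr12, which are outside the 10 and are named after their values were seen, were low. Tlr11 had counts of 43, 29 and 38 in Hoxb8 libraries and 27, 7, 0 and 21 in non-Hoxb8 libraries. Its groups did not overlap in CPM, with Hoxb8 higher (2.46% of all genes tested). The nearest values were 3.90 CPM in library 14 and 3.70 CPM in library 5. Its log2 fold change was 1.26 ± 1.03 (SE), with an adjusted p of 1 in edgeR's test. Tlr12 had counts of 170, 154 and 237 against 143, 212, 109 and 130, at a log2 fold change of 0.22.

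The genes that carry, chaperone and relay the receptors were examined in 8 lists of 92 genes, of which 85 were tested. Without pairs 0 of the 85 passed edgeR's test, 2 had an unadjusted p below 0.05 (Cd36 and Ddx58, where 1.95% of all genes tested were higher and 1.57% lower), and DESeq2 called 1 higher (Cd36) and 0 lower (0.168% and 0.0337%). With pairs 3 were higher (Cd36, Il1b and Cxcl2) and 0 lower, where 0.362% and 0% of all genes tested were called, and 10 of the 85 had an unadjusted p below 0.05 (3.01% higher and 2% lower over all genes).

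Co-receptors help ligands reach the surface receptors, and 5 of 6 listed were tested, with a median log2 fold change of 0.22. Cd36, a scavenger receptor that works with Tlr2 and Tlr6, had CPM of 12.4, 52.9 and 13.6 in Hoxb8 libraries and 0.137, 4.96, 0.801 and 5.49 in non-Hoxb8 libraries. All 3 Hoxb8 libraries were above all 4 others. Its log2 fold change in edgeR was 3.20 ± 0.96 (SE) without pairs, with an adjusted p of 1, and 4.19 ± 0.61 (SE) with pairs, with an adjusted p of 0.000111. DESeq2 without pairs gave 3.22 ± 0.78 (SE) and an adjusted p of 0.0265. Cd14, which hands lipopolysaccharide to Tlr4, was at 260 ± 132 (SD, n = 3) against 181 ± 46.9 CPM (SD, n = 4), and Ly96 was at 109 ± 25.9 against 93.2 ± 40.5. Neither passed the test. Like Tlr8, Cd36 was highest in library 14, where the macrophage and monocyte marker sums were highest, and their part in its level was not tested.

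None of the 10 trafficking and processing genes passed the test with or without pairs, and their median log2 fold change was -0.10. Unc93b1, which escorts the endosomal receptors, was at 668 ± 32.7 CPM (SD, n = 3) in Hoxb8 and 713 ± 148 (SD, n = 4) in non-Hoxb8 microglia. The chaperone gene Cnpy3 was at 86.8 ± 13.6 and 96.5 ± 16.9 CPM. Of 6 adaptors, 0 passed with or without pairs, and Myd88 was at 40.9 ± 16 against 33.5 ± 8.53 CPM. Tirap, which bridges Myd88 to Tlr2 and Tlr4, was at 40.3 ± 9.58 against 56.6 ± 22.9 CPM.

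Signalling genes downstream gave no call in edgeR with or without pairs. Values are means ± SD over the 3 Hoxb8 and the 4 non-Hoxb8 libraries. The 17 kinases and ubiquitin ligases tested had a median log2 fold change of -0.06, with Irak1 at 165, 166 and 167 CPM in Hoxb8 libraries against 152 ± 11.6 and Irak2 at 92.7 ± 35.7 against 91.5 ± 17.9 CPM. The 12 transcription factors had a median of 0.00, with Nfkb1 at 166 ± 20.2 against 148 ± 23.3 CPM and Nfkb2 at 12.8 ± 15.6 against 12.4 ± 8.89. The 11 inhibitors tested had a median of 0.14, with Irak3 at 3.86 ± 3.37 against 7.74 ± 7.26 CPM and Tollip at 50.4 ± 6.91 against 42.6 ± 15.3. Of 10 other sensors tested, Nod1 was at 23 ± 7.88 against 21 ± 7.43 CPM and Nod2 at 7.38 ± 4.98 against 3.95 ± 1.92. The RNA helicase gene Ddx58, named after its values were seen, was at 86.4 ± 15.8 against 54.1 ± 6.76 with a log2 fold change of 0.68 ± 0.23 (SE) and an adjusted p of 1 in edgeR's test.

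Target genes of the pathway had the highest median log2 fold change of the 8 pathway lists, 0.96, with 11 of 14 above 0 and none past the test without pairs. With pairs the median was 0.59, with 10 of 14 above 0. Their levels were uneven across libraries. Il1b had CPM of 26.6, 941 and 8.75 in Hoxb8 libraries and 11.1, 408, 5.77 and 8.57 in non-Hoxb8 libraries. Cxcl2, a neutrophil chemokine, had 13.7, 338 and 1.35 against 8.37, 71.6, 0 and 3.94 CPM, and Tnf 42.8, 698 and 4.31 against 32.0, 546, 4.48 and 50.1. In each of the 3 the pair of libraries 13 and 14 was far above the rest, in both groups. With pairs, Il1b had a log2 fold change of 1.08 and Cxcl2 of 1.70, with adjusted p of 0.00201 and 0.0219 in edgeR's test, while neither passed without pairs and Tnf passed in neither fit. DESeq2 without pairs gave no adjusted p for these 3 genes, and with pairs its adjusted p was 8.5e-05 for Il1b and 0.794 for Cxcl2, so the call of Cxcl2 was lost there. Tlr2 was highest in the same 2 libraries. Tlr8 was highest there within each group, and no other receptor had its highest value in either of them.

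**Figure D4:**
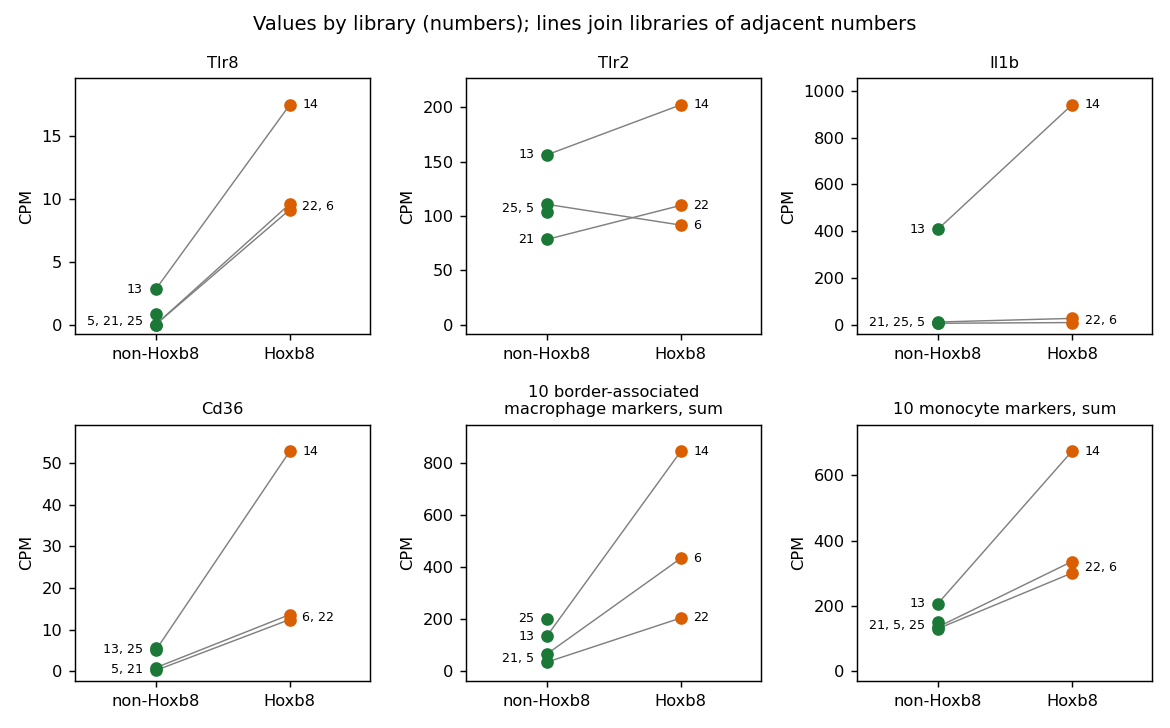
CPM of Tlr8, Tlr2, Il1b and Cd36 and the summed CPM of the border-associated macrophage and the monocyte markers, with 1 point per library, labelled by its number (neighbouring points share a label, lowest first), and lines that join adjacent libraries. Library 14 is the highest in all 6 panels. Library 13 is the next highest for Il1b and Tlr2 and is at 2.80 CPM for Tlr8.

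**Figure D5:**
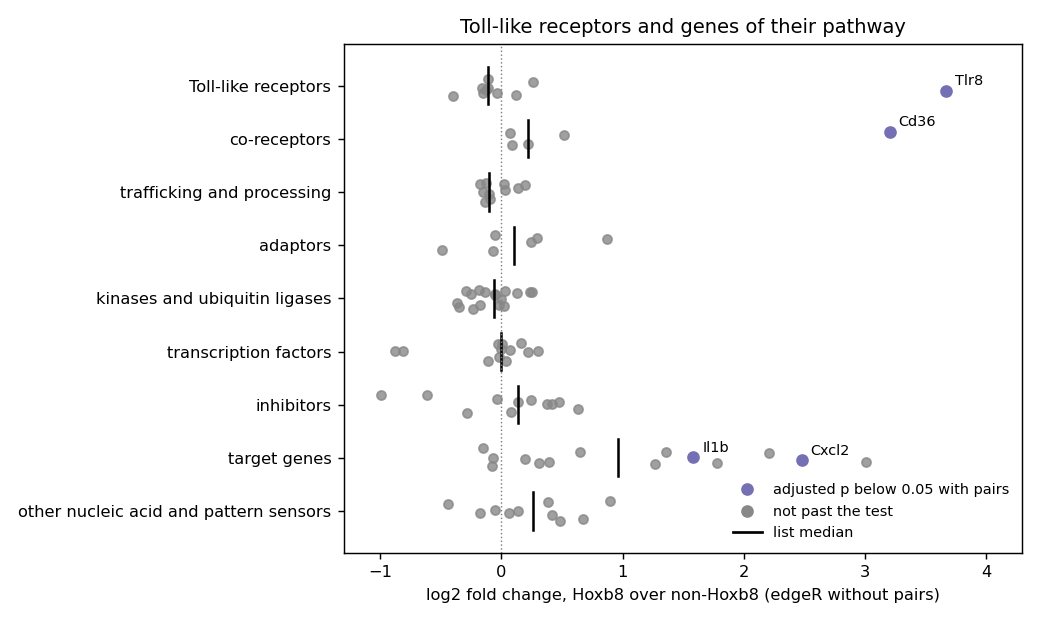
Log2 fold change in Hoxb8 over non-Hoxb8 microglia, from edgeR without pairs, of each tested gene in the Toll-like receptor list and the 8 lists of pathway genes, 1 point per gene, with a bar at the median of each list and the genes past the test with pairs coloured and named. The medians run from -0.11 to 0.96, and Tlr8 and Cd36 stand at 3.67 and 3.20.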

How the data were processed

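RNA came from cortical cells enriched with magnetic beads against Cd11b and then separated by tdTomato and GFP fluorescence. Per the submitters' processing notes, reads were processed with STAR 2.4.1c on GRCm38, and featureCounts, Subread and DESeq2 are named without versions. The authors deposited 1 table of raw counts, with a row for each symbol. Of 14616 rows, 22 had names turned into dates and were left out (a median of 0.133% of counts per library). Counts are of reads without molecular identifiers, so limits and intervals cover counting error only.

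The test of the counts was the quasi-likelihood test of edgeR 4.0.16 (R 4.3.3, TMM, filterByExpr, robust glmQLFit and glmQLFTest) in 11874 genes. Benjamini-Hochberg adjustment was over all of them at 0.05. The fits kept edgeR's default prior count, and a prior count of 2 was used only for log2 CPM. Each standard error is the fitted log2 value over the root of its F statistic. DESeq2 1.42.0, limma 3.58.1 (voom), other normalisations, no filter and leaving out libraries were alternatives. The fits were tested on simulated data. CPM were computed with TMM factors, and lengths and positions are from GENCODE M21. Upstream sequences are from RefSeq (GRCm38.p6), in which 8 of 10 receptors matched.

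Libraries with adjacent numbers were taken as pairs because their deviations correlated at 0.18, 0.28 and 0.19, each over the 0.1 set for accepting pairs. The labels do not state the pairing, and library 25 has no partner. The receptors and the gene lists were chosen with earlier results of these data known. All 10 receptors are named, with those pathway genes that passed either edgeR test and otherwise the first 2 tested of each list. The value of 1 listed marker gene is not reported here.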

Additional observations from a re-analysis of the deposited data

How the results depend on the processing

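The number of genes higher in Hoxb8 microglia was 4 without pairs and 43 with the replicate block of adjacent libraries. It was 20 in DESeq2, 49 in DESeq2 with the block, 0 in limma-voom, 0 to 6 when each library was left out (0 without library 5), 2 without libraries 13 and 14, and 0 without libraries 21, 22 and 25. The block without libraries 5 and 6 gave 63, without 13 and 14 gave 31, and without 21 and 22 gave 50. Genes lower were 0 without pairs, 4 in DESeq2, 2 in DESeq2 with the block, and 5, 7 and 3 in the same 3 reduced blocks. The number of Toll-like receptors higher went from 0 to 1, Tlr8, with the block, in DESeq2 with the block, and in the block without libraries 5 and 6 or 13 and 14. The block changed no other receptor's call.

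Tlr8 was above 0 in all 20 alternatives, at log2 fold changes of 3.25 to 9.01. The last came from the block without libraries 13 and 14, where the non-Hoxb8 partners are at 0, so that it depends on edgeR's default prior count. Leaving out each library gave 3.26 to 5.39 for Tlr8. Of 200 values for the 10 receptors, 180 kept their direction and side of the threshold, 4 (all Tlr8) passed it and 16 changed sign without passing it. When each library was left out, Tlr1 ranged from -0.17 to 0.10, Tlr2 from -0.16 to 0.48, Tlr3 from -0.28 to 0.03, Tlr5 from -0.23 to 0.07, Tlr7 from -0.03 to 0.30 and Tlr13 from -0.32 to 0.05. The block without libraries 5 and 6 gave 0.05 for Tlr1, 0.26 for Tlr3, 0.11 for Tlr4, 0.24 for Tlr5 and 0.05 for Tlr13. Tlr5 was 0.03 with the block in edgeR and in DESeq2. Tlr7 was -0.03 without libraries 13 and 14 and -0.02 in the block without them. The causes of these changes were not tested. With 3 against 4 libraries, 27 counts of Tlr8 in non-Hoxb8 microglia, and pairs read from library numbers, the size of the Tlr8 difference is known only within its interval.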
